A study of Mus musculus with 6 samples.

Results

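The genes described here are the replication-dependent histone genes, taken as every row of the expression table whose symbol starts with Hist1h, Hist2h, Hist3h or Hist4h, which gave 68 of 24318 genes. By histone type they were 6 H1, 18 H2a, 19 H2b, 12 H3 and 13 H4 genes, and by gene cluster 54 belonged to Hist1, 10 to Hist2, 3 to Hist3 and 1 to Hist4. The cells were CAD, a mouse catecholaminergic neuronal line, and had received either an siRNA against circGigyf2, the circular RNA formed from exons of Gigyf2 (siCircGigyf2, n = 3 libraries), or a control siRNA (siNC, n = 3 libraries). All 6 libraries were made from total RNA depleted of ribosomal RNA, so RNAs without a poly(A) tail were not selected against, and were sequenced as paired reads of 150 bases. The labels name 1 siRNA treatment per group and nothing else that sets the groups apart, and the sources used here give neither dose nor time. The labels do not state whether replicates of a group came from different cultures; the p-values below then describe the spread among these libraries alone, and that spread may be technical.

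Histones H2A, H2B, H3 and H4 form the protein core of the nucleosome, and H1 binds the linker DNA between nucleosomes. A cell that copies its genome must package the new DNA, so the replication-dependent histone genes are transcribed strongly in S phase and their mRNAs are degraded at its end. These mRNAs come from short genes without introns that lie in clusters, and they end not in a poly(A) tail but in a conserved stem-loop, which the stem-loop binding protein SLBP holds while the U7 small nuclear ribonucleoprotein directs the cut that releases the mRNA. In bulk RNA, fewer cells in S phase and less histone mRNA per cell cannot be told apart.

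The stem-loops are shown because they are the element that defines these mRNAs, and because members of one histone type often share theirs. They were read from the GENCODE M21 transcripts (build GRCm38), searching each coding transcript after its stop codon for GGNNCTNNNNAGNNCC on the transcript's own strand, with all 6 bases of the stem paired. The pattern was found in 46 of the 68 genes (67.6%), starting 21 to 58 bases after the stop (median 31). Of the 22 without it, 15 have annotated transcripts that end under 20 bases after the stop, before the place where the stem-loop would lie, and 1, Hist3h2bb-ps, has no coding transcript and could not be searched after a stop. Among 21810 other coding genes, 130 (0.596%) hold the pattern anywhere in the longest transcript, although the transcripts of those other genes are longer (median 2889 bases over all 21810, against 536 for the histone genes). There were 8 distinct stem-loops, each shown once below with 5 bases on each side. Capitals mark the stem and loop, written 5′ to 3′ in DNA letters.
Hist1h1e (the form of 26 genes, of H1, H2a, H2b and H3): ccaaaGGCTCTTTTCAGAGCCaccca
Hist1h4d (the form of 7 genes, all H4): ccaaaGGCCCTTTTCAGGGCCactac
Hist1h3e (the form of 6 genes, of H1, H2b and H3): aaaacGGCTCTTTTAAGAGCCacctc
Hist2h4 (shared with Hist1h4i): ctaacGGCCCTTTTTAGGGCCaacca
Hist1h4b (shared with Hist1h4j): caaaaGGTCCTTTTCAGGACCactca
Hist1h4a: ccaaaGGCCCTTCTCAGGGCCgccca
Hist1h3g: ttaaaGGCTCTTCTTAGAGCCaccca
Hist2h2ac: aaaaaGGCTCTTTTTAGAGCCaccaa

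The values were FPKM (fragments counted per kilobase of transcript, scaled for library size), and are relative to all other genes of that library. Fragment totals were not given in the table, but the steps between low FPKM values put the siCircGigyf2 libraries at 0.804 to 0.917 of the depth of siNC replicate 1, and siNC replicates 2 and 3 at 0.983 and 0.956, so the siCircGigyf2 libraries were the shallower ones. The gene-level value of Gigyf2, which pools linear and circular molecules, was 21.8, 21.1 and 21.3 FPKM with the circGigyf2 siRNA and 23.2, 23.1 and 23.2 in the siNC libraries (limma adjusted p = 0.0287), which is a weak check of the labels, and circGigyf2 has no row of its own. Of 14 markers of glia, endothelium and fibroblasts, 12 averaged under 1 FPKM, and Aqp4 and Col1a2 were listed at 0 in all 6 libraries. Those above 1 FPKM were Pecam1 of endothelium (mean 6.53 over the 6 libraries) and Col1a1 of fibroblasts. Col1a1 averaged 1.47 FPKM with the circGigyf2 siRNA and 0.924 in the siNC libraries, without overlap. Summed, the 14 markers came to 9.31 to 10.98 FPKM with the circGigyf2 siRNA and 8.63 to 10.03 in the siNC libraries. The 6 neuronal markers summed to 503 to 514 against 384 to 391 FPKM, and the 5 catecholaminergic markers to 11.5 to 12.8 against 12.6 to 13.0 FPKM. Within these lists the genes differed. Mean Tubb3 (177 against 120 FPKM), Gap43 (94.9 against 62.7) and Ina (69.3 against 41.9) were higher, without overlap. Elavl4 was lower (44.0 against 47.1), also without overlap, and Stmn2 and Snap25 overlapped. Slc18a1 was higher (4.80 against 3.60) and Dbh lower (1.14 against 1.77), both without overlap, while Th, Ddc and Slc18a2 overlapped. The part of depth and of the neuronal markers in the histone results was not tested.

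Histone genes were lower after the circGigyf2 siRNA in every histone type and in the Hist1, Hist2 and Hist3 clusters. Summed over all 68 genes, they reached 10351, 9944 and 9492 FPKM with the circGigyf2 siRNA and 12532, 11996 and 12277 FPKM with the control siRNA, a ratio of means of 0.809. The groups did not overlap. Histone genes made up 1.62% ± 0.0588 (SD, n = 3) of all FPKM with the circGigyf2 siRNA and 2.07% ± 0.0295 in the siNC libraries.

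Gene by gene, 56 of the 68 passed a filter of a mean of 1 FPKM over the 6 libraries, and each of these also averaged at least 1 FPKM in both groups. They were tested with limma on log2(FPKM + 1), together with all 11420 genes that passed, and called at a Benjamini-Hochberg adjusted p under 0.05. Differences are siCircGigyf2 minus siNC on that scale, on which changes of weakly expressed genes look smaller than they are. Of the 56, 41 fell, 0 rose and 15 did not pass. At an unadjusted p under 0.05 the limma counts were 44 lower and 0 higher. Over all genes tested, 18.7% were called lower and 19.5% higher. The siCircGigyf2 libraries lay below all siNC libraries for 42 of the 56 histone genes, against 25.3% of all genes tested. The median log2 difference of the 56 was -0.40, against 0.00035 over all genes tested. That of the 41 that fell was -0.43, against -0.25 for the 2135 genes that fell in the whole table.

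**Figure D1:**
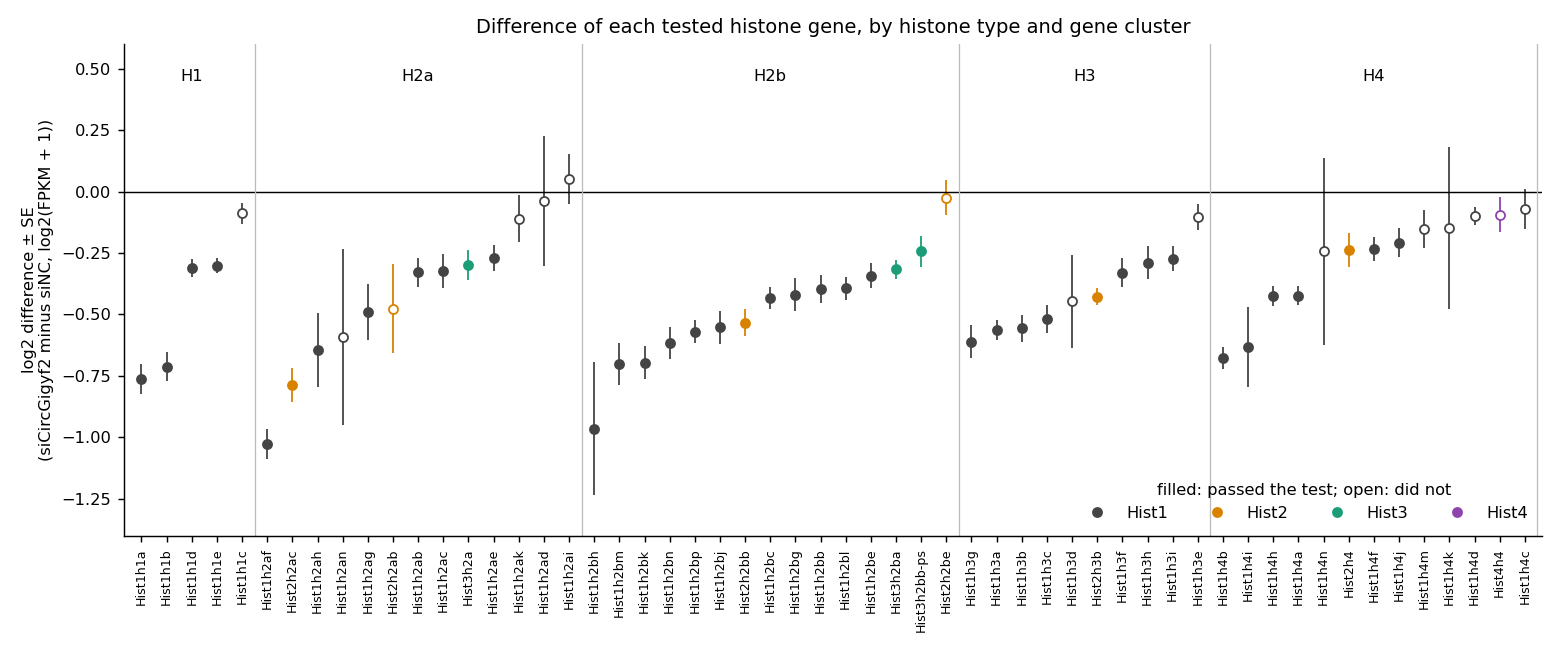
log2 difference with its SE (vertical axis, siCircGigyf2 minus siNC on log2(FPKM + 1)) of each of the 56 tested histone genes, in columns by histone type and coloured by gene cluster. Filled points passed the limma test and open points did not, and every point but Hist1h2ai lies below 0.

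Among the 12 genes below the filter, 4 were listed at 0 in all 6 libraries, namely Hist1h2aa, Hist1h2ao, Hist1h2ap and Hist1h2br. An exact 0 in this table can be a failed estimate, and Hist1h2ao, Hist1h2ap and Hist1h2br have near-identical copies (below). The genes nearest under the filter were Hist1h1t, which encodes the H1 of the testis, at 0.552, 0.299 and 0.114 against 0.921, 0.646 and 0.389 FPKM, and Hist1h2bf at 0.334, 0.584 and 1.01 against 0, 0.264 and 0.586 FPKM. Those nearest above it were Hist1h2ad and Hist1h4n, at means of 1.57 and 1.63 FPKM. The remaining tested genes reached up to a mean of 1267 FPKM (Hist1h4d), with a median over the 56 of 115. Replicates of a gene within a group varied by 0.797% to 70.6% of their mean (median 6.39%). Across the 56 genes the log2 difference was related only loosely to the log2 of the mean FPKM (Pearson's r 0.102, Spearman's rho 0.294), a description over genes that share libraries.

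**Figure D2:**
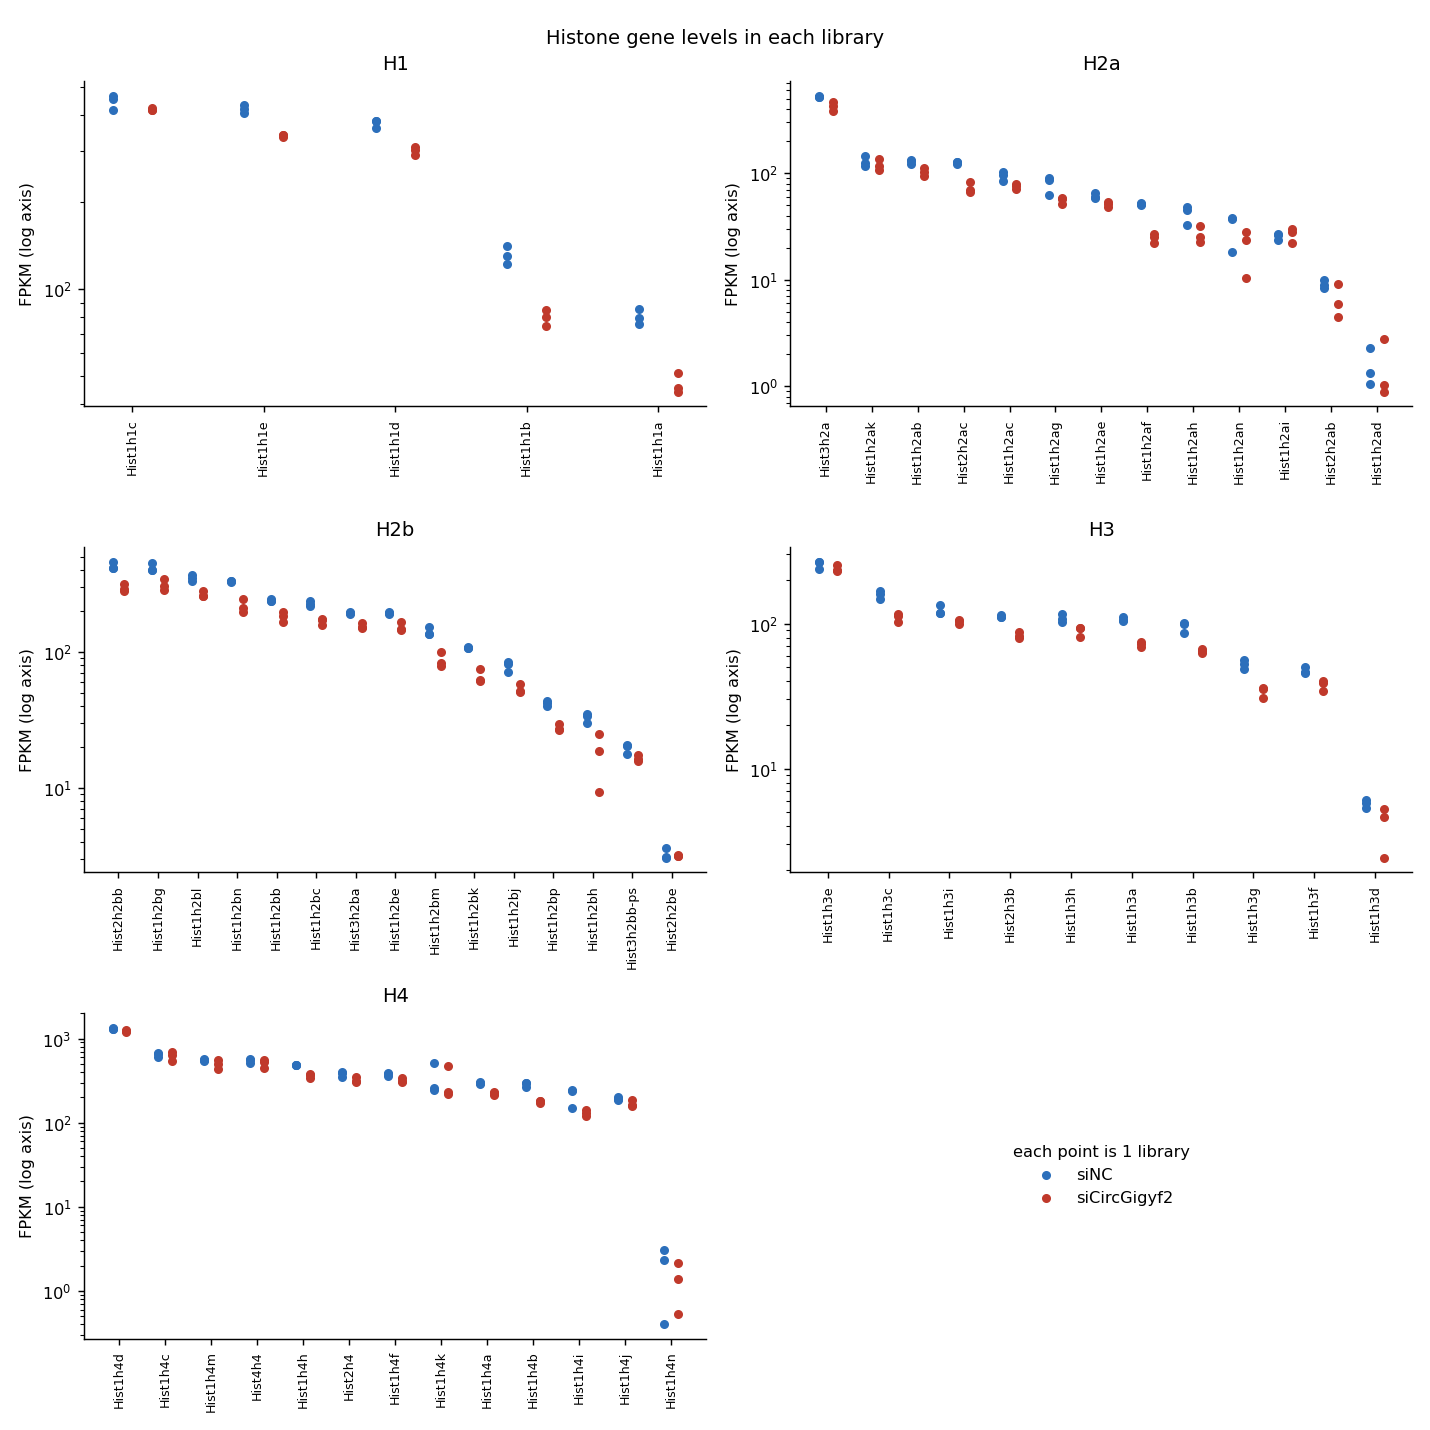
FPKM (log axis) of each tested histone gene in each of the 6 libraries, with 1 panel per histone type and genes ordered from high to low; blue points are siNC and red points siCircGigyf2. H4 genes reach the highest levels, and the red points lie under the blue ones for 42 of the 56 genes.

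Of the 5 tested linker histone H1 genes, all but the most abundant one fell (median -0.31). Hist1h1a, the linker histone H1.1, was at 45.4, 51.2 and 44.2 FPKM with the circGigyf2 siRNA and 79.6, 85.4 and 75.9 in the siNC libraries. Hist1h1b (H1.5) was at 84.6, 80.1 and 74.4 against 122.5, 141 and 130.3 FPKM. The groups were far apart in both genes, which fell by 0.76 (SE 0.060, limma adjusted p = 4.41e-05) and 0.71 (SE 0.058, adjusted p = 5.28e-05) on the log2 scale. Hist1h1d (H1.3) was at 311, 291.5 and 304 against 361, 382 and 383 FPKM. Hist1h1e (H1.4) was at 337, 343.5 and 342 against 409, 433 and 420.4 FPKM. Both fell, by 0.31 and 0.30 (adjusted p = 0.000266 and 0.000142), again with no overlap. Hist1h1c (H1.2), which is also known to give polyadenylated mRNA in cells that no longer divide, was at 418, 425 and 416 against 467.5, 454 and 418 FPKM. Its lowest siNC library lay among the siCircGigyf2 libraries, and its log2 difference of -0.09 (SE 0.042) did not pass (adjusted p = 0.132), although it did with siNC replicate 3 left out (0.0207) and after quantile normalization (0.0279).

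The make-up of summed H1 FPKM differed between the groups. Hist1h1c held 34.9%, 35.7% and 35.2% of summed H1 FPKM with the circGigyf2 siRNA and 32.4%, 30.4% and 29.3% in the siNC libraries. The shares of Hist1h1a (3.95% ± 0.306 against 5.52% ± 0.195, SD, n = 3) and Hist1h1b (6.70% ± 0.386 against 9.01% ± 0.467) were lower with the circGigyf2 siRNA, without overlap. Those of Hist1h1d (25.4% against 25.8%) and Hist1h1e (28.7% against 28.9%) overlapped. With 3 libraries against 3 an exact permutation test cannot go below 0.1, so shares and sums are given by their values and overlap.

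**Figure D3:**
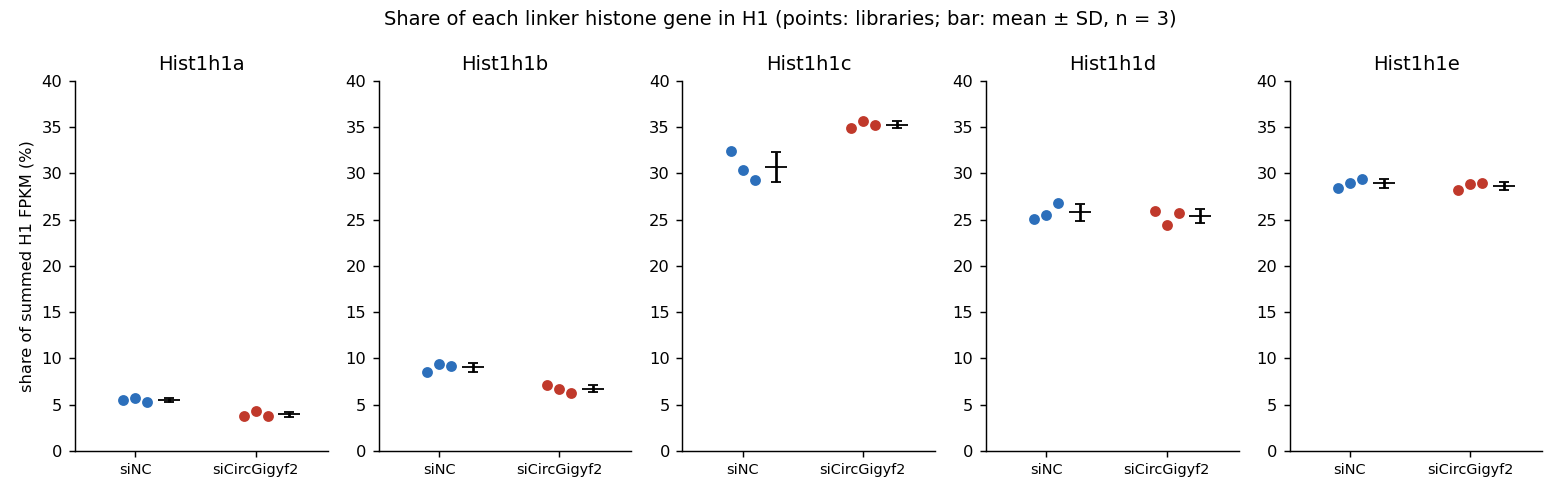
Share of each H1 gene in the summed H1 FPKM (vertical axis, percent) in each library (points), with the mean ± SD of 3 libraries beside them. Hist1h1c lies between 34.9% and 35.7% in the siCircGigyf2 libraries, above all siNC libraries, Hist1h1a and Hist1h1b are lower there, and Hist1h1d and Hist1h1e overlap.

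Of the H2a genes, 8 of 13 tested fell and 5 did not pass (median -0.33). Hist1h2af showed the largest fall of all 56, from 51.0, 50.5 and 52.7 FPKM in the siNC libraries to 26.9, 22.2 and 25.3 in the siCircGigyf2 libraries (-1.03, SE 0.061, limma adjusted p = 1.59e-05). Hist2h2ac, of the Hist2 cluster, was at 82.2, 69.3 and 66.3 against 121, 128 and 127 FPKM (-0.79, SE 0.069, adjusted p = 7.14e-05). Neither gene's groups overlapped. The most abundant H2a gene was Hist3h2a, at 466, 425 and 387 against 519, 517 and 533 FPKM, which fell by 0.30 (adjusted p = 0.00422). Hist1h2ab fell by 0.33 (103 ± 8.47 against 129 ± 5.61 FPKM, SD, n = 3, adjusted p = 0.00216).

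The 5 H2a genes that did not pass were of different kinds. Hist1h2ak was abundant and its groups overlapped, at 135, 117 and 107 against 146, 117 and 125 FPKM (-0.11, limma adjusted p = 0.391). With 1 library left out its difference ran from -0.20 (without siCircGigyf2 replicate 1) to -0.020 (without siNC replicate 1) and was -0.032 without siCircGigyf2 replicate 3. Hist1h2ai was at 28.1, 30.0 and 22.0 against 26.3, 27.0 and 23.4 FPKM, and its difference of 0.05 (adjusted p = 0.721) was the only one above 0 among the 56. That sign changed with siCircGigyf2 replicate 2 left out (-0.035) or siNC replicate 3 left out (-0.0096). Hist1h2an spread widely in both groups, at 28.0, 23.7 and 10.4 against 37.7, 18.2 and 36.8 FPKM, so that a log2 difference of -0.59 had an SE of 0.357 (adjusted p = 0.221) and ran from -0.93 (without siNC replicate 2) to -0.18 (without siCircGigyf2 replicate 3). Hist2h2ab, at 4.48, 5.89 and 9.04 against 8.94, 9.91 and 8.43 FPKM (-0.48, adjusted p = 0.0657), passed when its high library, siCircGigyf2 replicate 3, was left out (-0.71, 0.0019), and was at -0.28 (0.185) without siCircGigyf2 replicate 1. Hist1h2ad was close to the filter (2.81, 0.890 and 1.02 against 1.33, 2.29 and 1.06 FPKM, adjusted p = 0.925).

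H2b genes fell in 14 of 15 cases (median -0.43), and all 11 tested H2b genes of the Hist1 cluster fell (median -0.55). The 3 most abundant were Hist1h2bg, Hist2h2bb and Hist1h2bl. Hist1h2bg was at 343, 287.5 and 308 FPKM with the circGigyf2 siRNA and 404, 400.4 and 451 in the siNC libraries. Hist2h2bb was at 317, 293 and 281 against 416, 462 and 413 FPKM. Hist1h2bl was at 284, 260.3 and 259 against 369, 335.5 and 351 FPKM. None of the 3 overlapped between groups, and they fell by 0.42, 0.53 and 0.39 (limma adjusted p = 0.00131, 0.000147 and 0.000284).

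The H2b genes with the largest falls were less abundant. Hist1h2bm was at 101, 78.7 and 82.9 against 137, 154 and 135.5 FPKM (-0.70, SE 0.087, limma adjusted p = 0.000362), and its groups were well apart. Hist1h2bh was at 9.30, 18.7 and 25.0 against 29.9, 34.2 and 35.1 FPKM. Its fall of 0.96 (SE 0.271, adjusted p = 0.0214) rested in part on siCircGigyf2 replicate 1, without which it was 0.59, and the call was lost with siNC replicate 2 or 3 left out (adjusted p = 0.0581 and 0.0577), with no filter (0.0778) and with robust empirical Bayes (0.124). In the Hist3 cluster, Hist3h2ba (156 ± 7.52 against 194 ± 3.22 FPKM, SD, n = 3) fell by 0.32 (adjusted p = 0.000288). Hist3h2bb-ps, which GENCODE lists as a processed pseudogene, was at 16.3, 15.8 and 17.6 against 20.9, 20.5 and 17.9 FPKM and fell by 0.24 (adjusted p = 0.0151), but did not pass with siNC replicate 1 or 2 left out (0.0549 and 0.0543). Hist2h2be was the H2b gene that did not pass, at 3.19, 3.18 and 3.23 against 3.14, 3.08 and 3.64 FPKM (-0.03, adjusted p = 0.798).

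H3 genes fell in 8 of 10 cases (median -0.44). Hist1h3a was at 74.9, 72.6 and 68.7 against 105.5, 104 and 111.5 FPKM, and fell by 0.56 (SE 0.040, limma adjusted p = 2.95e-05). Hist1h3g, which has a stem-loop of its own (above), was at 35.7, 35.6 and 30.4 against 48.6, 55.9 and 52.2 FPKM and fell by 0.61 (SE 0.069, adjusted p = 0.000221). Hist1h3c, at 117, 112 and 102 against 160.0, 147.5 and 167 FPKM, fell by 0.52 (adjusted p = 0.000212). The groups of these 3 genes were clearly separate. Hist1h3i fell by 0.27 (103 ± 3.37 against 124 ± 9.29 FPKM, SD, n = 3, adjusted p = 0.00315), and Hist2h3b, of the Hist2 cluster, by 0.43 (82.3, 79.9 and 86.8 against 111, 110.4 and 114 FPKM, adjusted p = 5.53e-05).

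The most abundant H3 gene did not pass. Hist1h3e was at 253, 233 and 230.5 FPKM with the circGigyf2 siRNA and 266, 239 and 266 in the siNC libraries, which overlapped (-0.10, SE 0.052, limma adjusted p = 0.142). It passed after quantile normalization (0.0127) and with siNC replicate 2 left out (0.0296). The least abundant, Hist1h3d, was at 5.25, 2.43 and 4.65 against 6.04, 5.36 and 5.83 FPKM. Its groups did not overlap, but its difference of -0.45 had an SE of 0.189 (adjusted p = 0.0939), and it passed with the replicate number as a block (0.0444) and with siCircGigyf2 replicate 1 left out (0.0373), and was at -0.18 (0.101) without siCircGigyf2 replicate 2.

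H4 genes were the most abundant type and split about evenly, with 7 of 13 falling and 6 not passing (median -0.23). Hist1h4b was at 181, 173.5 and 179 FPKM with the circGigyf2 siRNA and 265, 298 and 295 in the siNC libraries, and fell by 0.68 (SE 0.046, limma adjusted p = 2.47e-05). Hist1h4h, at 364, 382 and 342 against 490.5, 480 and 490.4 FPKM, and Hist1h4a, at 230, 211 and 224 against 288, 298 and 307 FPKM, both fell by 0.42 (adjusted p = 0.000111 and 8.97e-05). The groups of these 3 were separate. Hist2h4 was at 353.5, 301 and 310 against 391, 346 and 401.5 FPKM. It was called lower (-0.24, SE 0.070, adjusted p = 0.0254) although siCircGigyf2 replicate 1 lay above siNC replicate 2, and the call was lost with no filter and with siCircGigyf2 replicate 2 or 3 or siNC replicate 1 or 3 left out (adjusted p from 0.0773 to 0.0827).

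The single most abundant histone gene, Hist1h4d, was at 1263, 1191 and 1217 against 1308, 1289 and 1336 FPKM. Its groups did not overlap, and its small difference of -0.10 (SE 0.037) lay just outside the threshold in the limma test (adjusted p = 0.0620). It passed with a filter of 5 FPKM (0.0495), median-of-ratios scaling (0.0394), quantile normalization (0.0015) and robust empirical Bayes (0.0490). Hist1h4c (683, 641 and 538 against 660, 609.5 and 678.5 FPKM), Hist1h4m (558, 433 and 505 against 569.5, 534 and 551 FPKM) and Hist4h4 (533, 549.5 and 451.5 against 566, 512 and 554.5 FPKM) overlapped and did not pass (adjusted p = 0.519, 0.154 and 0.328), although Hist1h4m passed with siCircGigyf2 replicate 1 left out (0.0269) and after quantile normalization (0.0452). Hist1h4n, near the filter, did not pass either (adjusted p = 0.645).

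Hist1h4i and Hist1h4k varied between libraries of one group. Hist1h4k was at 220, 472 and 230 FPKM with the circGigyf2 siRNA and 509.5, 247 and 259 in the siNC libraries, so 1 library of each group stood far above the other two (limma adjusted p = 0.751). Hist1h4i was at 131, 121 and 143 against 244, 236 and 148 FPKM and fell by 0.63 (SE 0.164, adjusted p = 0.0148), with siNC replicate 3 close to the siCircGigyf2 libraries. Its call was lost with siNC replicate 2 left out (0.0531), no filter (0.0601) and robust empirical Bayes (0.0709). Summed, these genes, put together after their values were seen, came to 439 ± 134 against 548 ± 182 FPKM (SD, n = 3) and overlapped. The other H4 genes summed to 4425 ± 233 against 5075 ± 125 FPKM and did not. The share of 150-base windows in no other gene (described below) was 97.9% for Hist1h4i and 46.6% for Hist1h4k. Both shared windows most often with Hist1h4a.

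The stem-loop forms divided the H4 genes. Of the 7 with the form of Hist1h4d, 2 fell (Hist1h4f and Hist1h4h) and the median difference was -0.15. The 5 with another form, Hist1h4a, Hist1h4b, Hist1h4i, Hist1h4j and Hist2h4, all fell. No stem-loop was found for Hist1h4k. This grouping was made after the values were seen and was not tested, and besides Hist1h4i and Hist2h4, Hist1h4j lost its call with no filter and with siCircGigyf2 replicate 2 or 3 or siNC replicate 1 left out (adjusted p from 0.0714 to 0.0828). Among the 26 genes with the form of Hist1h1e, 16 of 19 tested fell (median -0.34), and among the 6 with the form of Hist1h3e, 4 of 5 (median -0.40).

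The genes of a type were also summed, since fragments can be divided among similar genes within it. The sums still depend on that division, because FPKM is scaled by transcript length and because some sequence recurs outside the type (Hist2h2bb and Hist2h3b share windows with Gm20628, and Hist3h2a with Trim17). Hist2h2aa1, Hist2h2aa2 and Hist2h3c1 had 0% of windows in no other gene and shared most with Gm20633, Gm20632 and Gm20634. They were listed at means of 0.0797, 0.0922 and 0.000454 FPKM, so the H2a, H3 and Hist2 sums may lack fragments of these genes. H1 genes summed to 1197, 1191 and 1181 FPKM with the circGigyf2 siRNA and 1441, 1496 and 1428 in the siNC libraries. H2a genes summed to 1090.5, 1016 and 923 against 1322, 1239 and 1349 FPKM. H2b genes summed to 2154, 1963 and 1974 against 2815, 2824 and 2819 FPKM. In all 3 the groups were apart, at ratios of means of 0.818, 0.775 and 0.720. H3 genes summed to 871, 837 and 799 against 1065, 1021 and 1118 FPKM, a ratio of 0.782. H4 genes summed to 5039, 4937 and 4615 against 5889, 5414 and 5564 FPKM, a ratio of 0.865. These groups did not overlap either. As a share of all histone FPKM, H2b stood at 20.4% ± 0.613 (SD, n = 3) against 22.99% ± 0.540 and H4 at 49.0% ± 0.576 against 45.8% ± 1.03, both without overlap. H3 stood at 8.42% ± 0.00206 against 8.71% ± 0.345, also without overlap, while the shares of H1 (11.99% against 11.87%) and H2a (10.2% against 10.6%) overlapped.

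**Figure D4:**
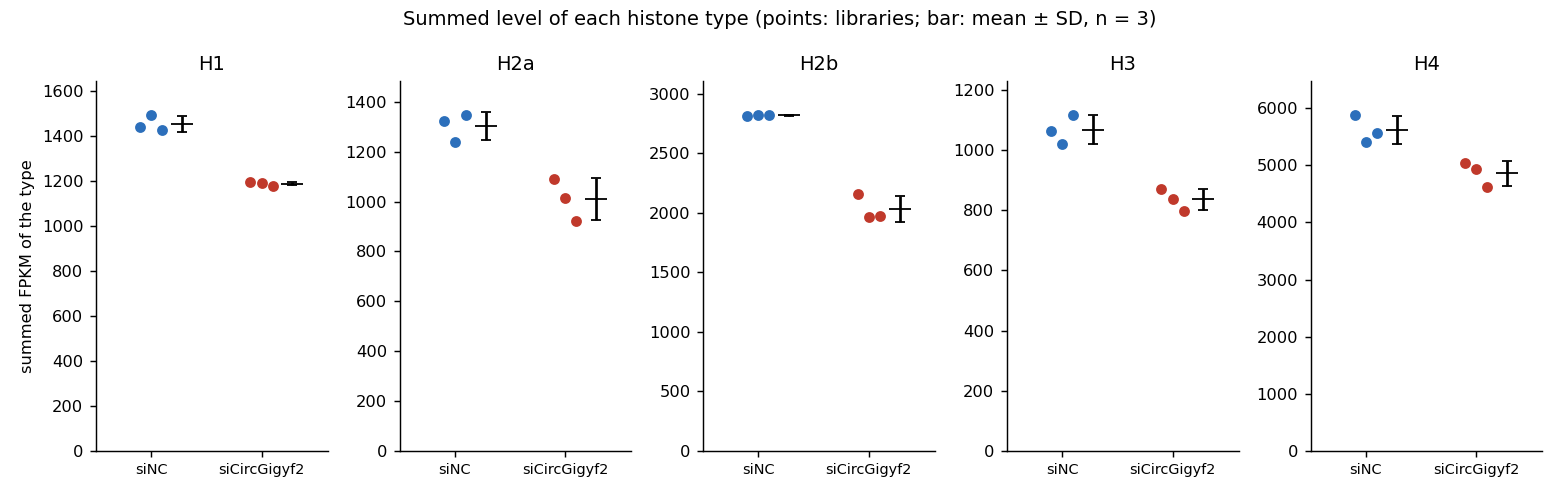
Summed FPKM of all genes of each histone type (vertical axis, from 0) in each library (points), with the mean ± SD of 3 libraries beside them. In all 5 types every siCircGigyf2 library lies below every siNC library, and the ratio of means runs from 0.720 for H2b to 0.865 for H4.

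By cluster, 34 of 46 tested Hist1 genes fell (median -0.41), 4 of 6 Hist2 genes (median -0.45) and all 3 Hist3 genes (median -0.30), while Hist4h4, the only Hist4 gene, did not pass. Summed Hist2 FPKM was 784 ± 50.9 against 1060 ± 8.33 (SD, n = 3, ratio 0.740) and summed Hist3 FPKM 598 ± 39.0 against 737 ± 9.99 (ratio 0.812), both without overlap. In the GENCODE M21 order, Hist1 lies on chromosome 13, Hist2 on 3, Hist3 on 11 and Hist4 on 6, and gaps of over 100 kb divide Hist1 into 4 blocks. The block from Hist1h2bl to Hist1h2br held 14 tested genes, of which 8 fell (median -0.28). The short block from Hist1h2ah to Hist1h2bj held 5, all of which fell (median -0.63). That median is the value of Hist1h4i, whose call was lost in 3 of 13 settings. The share of 150-base windows in no other gene (next paragraph) was 15.2% for Hist1h2ah, 34.5% for Hist1h2ag and 39.1% for Hist1h2bk. For Hist1h2bj it was 77.7%. The block from Hist1h4h to Hist1h1a held 27, of which 21 fell (median -0.40). The last block holds Hist1h2ba and Hist1h2aa, neither of which passed the filter. Neighbours could differ within a block. Hist1h4c and Hist1h1c, which did not pass, are followed in the order by Hist1h3c, which fell by 0.52.

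Many histone genes are close copies, and the sources used here do not say how fragments that match several of them were assigned. In the GENCODE transcripts, 40 of the 56 tested genes had at least 50% of their 150-base windows in no other gene, and of these 32 fell (median -0.37). Of the 16 with fewer, 9 fell (median -0.45). This division was chosen after seeing the data. All windows of the H1 genes Hist1h1a and Hist1h1c, and of Hist1h2ak and Hist1h4d, were found in no other gene. For Hist1h2af the share was 41.6%, for Hist1h4k 46.6%, for Hist1h4b 36.7%, for Hist1h4m 14.2% and for Hist1h2ai 13.9%. It was 0% for Hist2h2bb and Hist2h3b, whose windows recur in other gene models, most often Gm20628. Hist1h2bk, at 39.1%, also belongs to the 16. The values of single genes among the 16 are uncertain, since fragments could be divided differently among the copies. The uncertainty is not confined to them. Windows were taken over the longest annotated transcript, so a long stretch after the stem-loop raises the share. Hist1h2ac, at 94.4%, has 2010 bases after its stem-loop and still shared windows with 11 genes.

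Several H2a and H2b genes of Hist1 lie head to head and share the stretch between their starts, which gives pairs of genes with one upstream region. Pairs were sought only among genes with a matched RefSeq promoter (below). Hist1h2bc had none, so it could not be paired with Hist1h2ac, its neighbour on the opposite strand, and both of these fell. For 6 of the pairs found, both genes were tested. In 3 of them both genes fell, by 0.64 and 0.70 for Hist1h2ah and Hist1h2bk (178 bases between starts), 0.49 and 0.55 for Hist1h2ag and Hist1h2bj (249 bases), and 0.27 and 0.42 for Hist1h2ae and Hist1h2bg (180 bases). In the other 3 the H2b gene fell and the H2a gene did not pass. Hist1h2bn fell by 0.62 and Hist1h2ak was at -0.11, a value that moved with single libraries as given above (164 bases), Hist1h2bl fell by 0.39 and Hist1h2ai was at 0.05 (229 bases), and Hist1h2bp fell by 0.57 and Hist1h2an was at -0.59 with a wide error (240 bases). Within a pair the difference was not tested. Several of these H2a values also depend on how fragments were divided among copies. The share of windows in no other gene was 15.2% for Hist1h2ah, 34.5% for Hist1h2ag, 13.9% for Hist1h2ai and 27.5% for Hist1h2an. It was 75.5% for Hist1h2ae and 100% for Hist1h2ak.

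The regions before the starts are shown for 4 genes. They are an H2b gene that fell, an H1 gene that fell, an H4 gene that fell and the abundant H4 gene that did not pass (limma adjusted p = 0.0620). RefSeq promoters of GRCm38.p6, which run from 250 bases before to 50 bases after the start, were matched by symbol for 61 of the 68 genes. The CCAAT box (CCAAT, bound by NF-Y) was searched on both strands, as were the octamer (ATTTGCAT, bound by the POU protein OCT1), AAACACA, known from H1 promoters, and the TATA box in the form TATAAA. The CCAAT box was in all 6 H1, 17 H2a, 16 H2b and 10 H3 promoters and in 3 of 12 H4 promoters, against 37.4% of all 32851 promoters. The octamer was in 7 of 17 H2a and 7 of 16 H2b promoters and in none of the others, against 1.74% of all. AAACACA was in 5 of 6 H1 promoters, 2 of 17 H2a and 2 of 16 H2b, against 7.18% of all. TATAAA was in 4 of 6 H1, 11 of 17 H2a, 8 of 16 H2b, 4 of 10 H3 and 8 of 12 H4 promoters, against 13.6% of all. Matches of different motifs can share bases at their ends, and promoters of head-to-head genes share sequence and are not independent. Each sequence below is the 150 bases before the start on the gene's own strand, on chromosome 13 of GRCm38.p6. Capitals mark CCAAT on either strand, the octamer in the H2b gene and AAACACA in the H1 gene.
Hist1h2bk, plus strand, chr13:22035671-22035820: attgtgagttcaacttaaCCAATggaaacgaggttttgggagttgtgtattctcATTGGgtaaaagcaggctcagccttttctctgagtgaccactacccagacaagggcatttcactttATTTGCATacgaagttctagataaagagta
Hist1h1b, minus strand, chr13:21780626-21780775: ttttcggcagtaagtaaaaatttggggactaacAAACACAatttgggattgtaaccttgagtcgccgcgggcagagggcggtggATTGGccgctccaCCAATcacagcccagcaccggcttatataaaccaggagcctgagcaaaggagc
Hist1h4b, plus strand, chr13:23756787-23756936: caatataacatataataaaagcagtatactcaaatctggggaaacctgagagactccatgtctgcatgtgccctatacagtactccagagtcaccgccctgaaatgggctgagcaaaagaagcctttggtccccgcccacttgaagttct
Hist1h4d, plus strand, chr13:23581418-23581567: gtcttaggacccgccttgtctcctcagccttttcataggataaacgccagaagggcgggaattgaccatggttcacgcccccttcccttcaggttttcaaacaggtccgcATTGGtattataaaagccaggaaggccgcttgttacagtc

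Hist1h2bk, at 75.1, 61.7 and 62.3 FPKM with the circGigyf2 siRNA and 109, 106.5 and 107 in the siNC libraries, fell by 0.70 (SE 0.067, limma adjusted p = 0.000104). Its stretch holds CCAAT on both strands and the octamer near the start. In Hist1h1b, CCAAT stands on both strands and AAACACA lies further upstream. The stretch of Hist1h4d holds CCAAT on the opposite strand and that of Hist1h4b holds none. Hist1h4d lay just outside the threshold and passed in some other settings (above). For Hist1h4b, 36.7% of windows were in no other gene. Whether the matches go with the differences was not tested. These matches describe letters, not bound sites.

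Some histone genes are known to give polyadenylated mRNA in differentiated cells besides the stem-loop form. Of 6 such genes, Hist1h2bc, Hist3h2a and Hist3h2ba fell, and Hist1h1c, Hist2h2be and Hist4h4 did not pass (median of the 6, -0.20). Hist1h2bc was at 175, 173 and 160 against 239.5, 226 and 220 FPKM, without overlap, and fell by 0.43 (limma adjusted p = 0.000152). Of the 50 other histone genes tested, 38 fell and 12 did not pass (median -0.42). The search above found no stem-loop for Hist1h2bc and Hist2h2be. Annotated transcripts of some of the 50 also run far past the stem-loop, such as that of Hist1h1d (4884 bases after it). The 2 sets are therefore not a division by mRNA form. The table has 1 value per gene and does not separate the mRNA forms.

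Replication-independent histone variants, which are made outside S phase as well, were lower in 6 (50%) and higher in 1 (8.33%) of 12 tested (median -0.12), against 18.7% and 19.5% of all genes tested. H3f3a and H3f3b both encode the variant H3.3. H3f3b was at 251, 236 and 230 FPKM with the circGigyf2 siRNA and 306, 311 and 314 in the siNC libraries. H3f3a was at 496, 461 and 491 against 577, 589 and 600 FPKM. They fell by 0.38 and 0.29 (limma adjusted p = 0.000108 and 0.000433), without overlap. H2afx, which encodes the H2A.X that is phosphorylated at DNA breaks and whose mRNA also has a stem-loop form, was at 23.9, 26.5 and 23.3 against 33.2, 32.5 and 30.6 FPKM and fell by 0.37 (adjusted p = 0.000659). The stem-loop of H2afx has the H4-type stem with another loop.
H2afx: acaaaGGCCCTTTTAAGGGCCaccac
Cenpa, the H3 variant of centromeres, fell by 0.35 (11.5, 10.4 and 11.1 against 14.6, 15.0 and 13.1 FPKM, adjusted p = 0.00191), and H2afv and H2afz, which encode H2A.Z proteins, fell by 0.18 and 0.08 (adjusted p = 0.0223 and 0.0467). With 1 library left out, H2afz lost its call whichever library it was, and H2afv without siCircGigyf2 replicate 2 or siNC replicate 1 or 2; over all settings that lost them, adjusted p ran up to 0.174 and 0.079. H2afy, which encodes macroH2A1, rose by 0.14 (32.1 ± 1.09 against 29.1 ± 0.297 FPKM, adjusted p = 0.0132).

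Genes that act in the transcription, 3′ end formation and decay of histone mRNA showed no excess of calls in either direction. Of 26 tested, 3 (11.5%) were lower and 5 (19.2%) higher (median -0.0078), against 18.7% and 19.5% of all genes tested, so the count is no result about this list and the genes below are given one by one. Slbp, which encodes the stem-loop binding protein, was at 36.6, 33.3 and 34.0 against 47.1, 47.1 and 49.3 FPKM and fell by 0.45 (SE 0.041, limma adjusted p = 8.13e-05), without overlap. Eri1, the exonuclease that trims and helps degrade histone mRNA at the stem-loop, was at 25.5, 25.3 and 26.5 against 30.2, 30.1 and 30.8 FPKM and fell by 0.23 (adjusted p = 0.00091). Ncbp2, a subunit of the cap-binding complex, fell by 0.13 (adjusted p = 0.041). Pou2f1, which encodes the octamer-binding OCT1, was at 15.5, 15.4 and 15.2 against 12.04, 12.2 and 12.3 FPKM and rose by 0.31 (adjusted p = 0.000302). Hinfp, a transcription factor of H4 genes, was at 33.9, 33.8 and 31.4 against 28.8, 26.6 and 29.0 FPKM and rose by 0.23 (adjusted p = 0.00465). The groups of Pou2f1 and Hinfp were separate. Lsm10, a subunit of the U7 particle, and Upf1 and Lsm1, which act in mRNA decay, rose by 0.17, 0.16 and 0.14 (adjusted p = 0.0263, 0.0213 and 0.0254). These 3 calls and that of Ncbp2 were each lost with some libraries left out: Lsm10 without siCircGigyf2 replicate 1 or 3 or siNC replicate 1 or 3, Upf1 without siCircGigyf2 replicate 2 or siNC replicate 2 or 3, Lsm1 without siCircGigyf2 replicate 2 or 3 or siNC replicate 1 or 3, and Ncbp2 without any but siCircGigyf2 replicate 3. Adjusted p in the settings that lost them ran up to 0.0899, 0.0734, 0.0795 and 0.113. Npat, the coactivator of histone loci, and Casp8ap2 (FLASH), which acts in 3′ end processing, were at -0.10 and -0.08 and did not pass (adjusted p = 0.0872 and 0.282). Npat passed with siCircGigyf2 replicate 1 left out (0.0326).

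Of 23 histone chaperone and chromatin assembly genes, 9 fell (39.1%), 2 rose (8.70%) and 12 did not pass (median -0.09), against 18.7% lower and 19.5% higher over all genes tested. Asf1b, the H3-H4 chaperone of proliferating cells, was at 6.69, 6.30 and 6.99 against 9.93, 12.9 and 11.2 FPKM and fell by 0.68 (SE 0.084, limma adjusted p = 0.000342). Mcm2, a subunit of the replicative helicase that also binds H3-H4, was at 9.30, 10.5 and 9.21 against 13.9, 14.6 and 13.4 FPKM and fell by 0.49 (adjusted p = 0.000309). Both were without overlap. Ssrp1, of the H2A-H2B chaperone FACT, fell by 0.32 (61.2 ± 1.78 against 76.8 ± 1.26 FPKM, SD, n = 3, adjusted p = 0.000117), as did Nasp, which binds H3 and linker histones, also by 0.32 (13.9 ± 0.213 against 17.7 ± 1.25 FPKM, adjusted p = 0.00133). Supt16, of the other FACT subunit, did not fall. It was at 34.3, 35.1 and 35.0 against 33.3, 33.2 and 32.8 FPKM, without overlap, and did not pass (0.07, adjusted p = 0.0909). The others that fell were Chaf1a and Chaf1b, subunits of the assembly factor CAF-1, and Anp32e, Ubn1 and Rbbp4, the last of which did not pass without siNC replicate 3 (0.0591). Nap1l1, an H2A-H2B chaperone, was at 669, 645 and 666 against 586, 589 and 590.5 FPKM and rose by 0.16 (adjusted p = 0.00273), but did not pass with quantile normalization (0.111). Asf1a, the paralog of Asf1b, rose by 0.13 (28.4 ± 1.61 against 25.8 ± 0.455 FPKM, adjusted p = 0.0437), but did not pass with no filter, nor when any of the libraries except siCircGigyf2 replicate 2 was dropped (adjusted p from 0.0673 to 0.133).

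**Figure D5:**
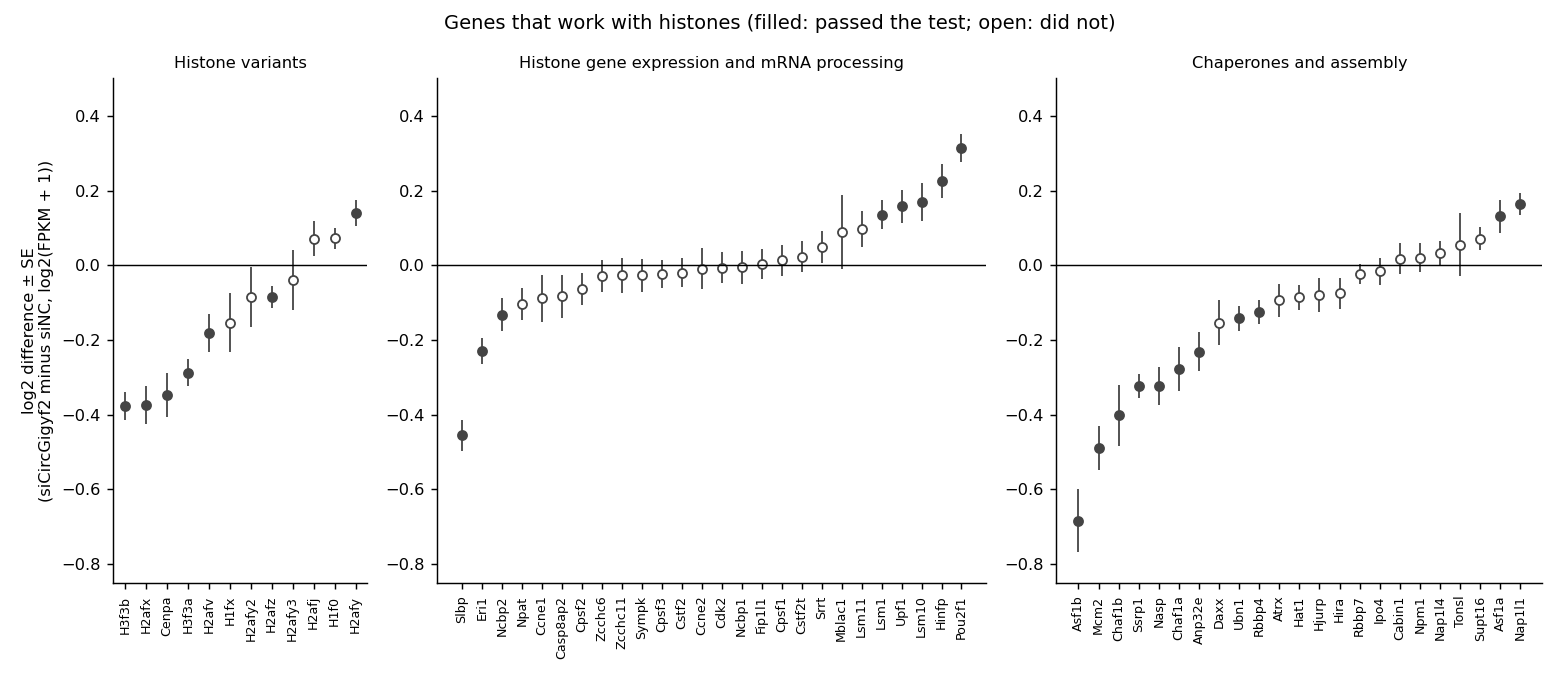
log2 difference with its SE (vertical axis, siCircGigyf2 minus siNC on log2(FPKM + 1)) of tested histone variants, of genes of histone gene expression and mRNA processing, and of chaperones and assembly factors, each ordered from low to high. Filled points passed the limma test; Slbp and Asf1b lie lowest in their panels, and Pou2f1 and Nap1l1 highest.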

How the data were processed

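RNA-seq values of 6 libraries of CAD cells were compared, 3 siCircGigyf2 against 3 siNC. Groups came from the treatment labels, and columns were matched to samples by title. The authors deposited 1 table of FPKM per gene symbol. The build was mm9 per the submitters' processing notes, and the sources used here name no aligner, quantifier, annotation or strand handling, so overlapping and antisense genes cannot be separated. FPKM of transcripts about as short as a fragment depends on how length was treated. The depth behind each value is unknown apart from the relative depth given above, taken from values under 0.3 FPKM.

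Genes with a mean of at least 1 FPKM entered a limma fit (version 3.58.1, R 4.3.3) of log2(FPKM + 1) on group (empirical Bayes with trend, two-sided, no covariates), with Benjamini-Hochberg adjustment over all 11420 genes. Sums, medians and sequence searches were computed in Python 3.11.15 with pandas 2.3.3 and numpy 2.4.6. The members, gene lists and tests were chosen with earlier results of these data known. An exact permutation p of the sums was planned, but none is printed, because the members were chosen with results known and the design cannot go below 0.1. Named genes were, per type, the 3 most abundant and the 2 with the largest difference, all tested members outside Hist1, those that did not pass or were above 0, the polyadenylated list, and, per other list, the 4 with the smallest p and 2 going the other way, with Slbp, Npat, Casp8ap2 and H2afx always; others were named after their values were seen. Transcripts came from GENCODE M21 and promoters from RefSeq, both on GRCm38 and not on mm9, so they were joined by symbol only. The fit was repeated with no filter, a filter of 5 FPKM, a pseudocount of 0.1, quantile or median-of-ratios scaling, robust empirical Bayes, a replicate block, and without each library in turn.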

Additional observations from a re-analysis of the deposited data

How the results depend on the processing

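The count of histone genes that fell was 41 and ranged from 37 (no filter, 64 genes tested) to 45 (quantile normalization), was 42 with the replicate number as a block, and was 38 to 43 with 1 library left out; the count that rose was 0 throughout. With only genes whose longest annotated transcript was mostly unshared, added after seeing the data, it was 32 of 40. Of the 41, 36 kept their call in every setting, and Hist1h2bh, Hist1h4i, Hist1h4j, Hist2h4 and Hist3h2bb-ps lost it in at least 1. The median of -0.40 was -0.33 with no filter and -0.35 to -0.42 with 1 library left out. Genes of histone mRNA processing that rose, 5 in number, were 3 with the replicate number as a block and 2 to 4 with 1 library left out. Chaperone genes that rose, 2 in number, were 1 with no filter, 1 after quantile normalization and 1 to 2 with 1 library left out. Signs turned only for genes that did not pass, each with 1 library left out, and over those fits Hist1h4c ranged from -0.14 to 0.028 (above 0 without siCircGigyf2 replicate 3), Hist2h2be from -0.061 to 0.033 (without siNC replicate 3), Hist1h2ad from -0.36 to 0.16 (also 0.098 and 0.15; siCircGigyf2 replicate 2 or 3, siNC replicate 2), Hist1h2ai from -0.035 to 0.18 (also -0.0096; below 0 without siCircGigyf2 replicate 2 or siNC replicate 3), Hist1h4k from -0.50 to 0.19 (also 0.014 and 0.045; siCircGigyf2 replicate 1 or 3, siNC replicate 1) and Hist1h4n from -0.70 to 0.055 (also 0.035; siCircGigyf2 replicate 3, siNC replicate 1). The cause of these changes was not tested. Over the tested genes named by the rule above, 677 values kept direction and side of the threshold. Of the rest, 21 lost the call, 14 gained it and 12 changed sign. These counts leave out genes named after their values were seen. Among those left out, H2afz lost its call in 8 of 13 settings and Ncbp2 in 7 of 13. No clear pairing by the labels' replicate numbers was seen (correlations of same-numbered deviations 0.163, -0.021 and 0.0025). With 3 libraries per group this cannot tell whether same-numbered libraries were prepared together. FPKM without counts gives no interval for a single library's value.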
